A study of Homo sapiens with 24 samples.

Results

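Ribosome biogenesis and nucleolar genes were followed in HCT-116 cells, an established human colorectal cancer line. The set is a fixed list of 46 genes, put together by name and function, with earlier results of these data known, under a rule that uses no measured value: 9 small nucleolar ribonucleoprotein (snoRNP) genes, 5 genes of multifunctional nucleolar proteins, 12 genes of small subunit factors, 14 genes of large subunit assembly factors and 6 genes of RNA polymerase I and its factor UBTF. The gene name in the deposited files gave 56 probes for all 46 genes, out of 34127 probes on the array. Of these, 54 probes, with at least 1 for each gene, were among the 18983 probes of 15158 genes that could be tested. A second probe of DDX10 and a second probe of POLR1A were not tested because no treatment had them well above background on all 6 arrays.

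The cells were a single stably transfected clone of HCT-116 with a doxycycline-inducible dominant negative Tcf4 (DN-Tcf4), which blocks Wnt target promoters. All 4 treatments used the same clone: untreated cells (Ctl), sodium butyrate at 5 mM (NaB), doxycycline at 4 µg/ml (Doxy) or the 2 agents together (DoxyNaB). The labels give 17.5 hr for the treatment, and by the study's methods doxycycline came first and 17.5 hr is the time with butyrate. Each of 6 experiments gave 1 one-colour array per treatment, 24 arrays in all. By the study's description of the clone, the DN-Tcf4 protein is abundant with both agents and scarce with doxycycline alone, and the clone limits the results to 1 line of cells. The labels do not say whether the 6 experiments were separate cultures, though the study calls them biological replicates. The p-values therefore measure how treatment differences vary over these experiments.

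Ribosomes are made in the nucleolus, where RNA polymerase I transcribes the rRNA precursor, snoRNPs guide its modification, and successive sets of assembly factors fold, cut and package it into the small and the large subunit. Dividing cells spend much of their transcription on this pathway, and colorectal cancer cells are known for enlarged, active nucleoli. MYC, a transcription factor that is itself a Wnt target, binds and activates many of these genes through the E-box sequence, and its level was therefore followed beside theirs.

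The E-box, here only its palindromic core CACGTG, was searched in RefSeq promoter windows (GRCh38.p14, from 250 bases before to 50 bases after each annotated gene start). A window was given for 38 of the 46 genes. CACGTG was in 19 of their 49 windows (38.8%), belonging to 18 genes, against 29 of 108 windows of other ribosome biogenesis genes (26.9%), 9.29% of the windows of all genes tested and 7.26% of all 35116 windows. The Tcf/LEF sequence ATCAAAG, searched on both strands, was in 1 of the 49 windows (2.04%), that of POLR1A, against 1.85% of the windows of other ribosome biogenesis genes, 1.56% of those of all genes tested and 2.62% of all windows. Of the 21 E-box matches, 13 began after the gene start and 8 before it. The stretches below are shown because their E-box lies wholly upstream of the start, which held for 7 matches. They run 5′ to 3′ on the gene's strand, with up to 30 bases on each side within the window and upstream of the start, and capitals mark the E-box.
DDX21, chr10:68956586-68956646, plus strand, E-box from -31: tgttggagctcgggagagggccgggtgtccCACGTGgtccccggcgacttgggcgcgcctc
LYAR, chr4:4290050-4290115, minus strand, E-box from -64: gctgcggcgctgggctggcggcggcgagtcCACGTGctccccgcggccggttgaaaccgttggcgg
NOP10, chr15:34343137-34343177, minus strand, E-box from -11: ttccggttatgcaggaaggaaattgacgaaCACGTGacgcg
UTP20, chr12:101280065-101280104, plus strand, E-box from -10: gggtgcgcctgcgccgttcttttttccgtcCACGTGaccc
IMP4, chr2:130342664-130342729, plus strand, E-box from -203: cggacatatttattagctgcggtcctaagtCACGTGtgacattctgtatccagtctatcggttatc
NOP10, chr15:34343271-34343336, minus strand, E-box from -170: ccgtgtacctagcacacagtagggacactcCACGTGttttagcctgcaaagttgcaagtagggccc
EBNA1BP2, chr1:43172772-43172820, minus strand, E-box from -237: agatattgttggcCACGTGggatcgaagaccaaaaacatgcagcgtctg
Such a match describes the letters in the window and not binding.

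A level is the log2 ratio of the processed signal of a probe to the 75th percentile of its array, so it compares 1 probe between arrays but not 2 genes with each other. Since levels are relative to the array, and RNA per cell was not measured, less RNA per cell and fewer cells with the RNA cannot be told apart. Across the arrays the 75th percentile ran from 380.2 to 1323 signal units, and 52.7% to 88.1% of spots were well above background. The negative controls had a mean net signal of 48.4 to 115 on 22 arrays, of 161 on the NaB array of experiment 3 and of 248.9 on the DoxyNaB array of experiment 2. Experiment 1 was hybridised on 2 slides of its own, butyrate on one and no butyrate on the other, so slide and treatment cannot be told apart in it, and its arrays stood apart in at least 1 treatment for 15 of the genes. The epithelial markers EPCAM, CDH1, KRT8, KRT18, KRT19 and CDX2 were well above background on all 24 arrays, with a summed level of 210.0 to 301.0 in Ctl and 274.3 to 501.7 in NaB (linear units, the 75th percentile being 1). Within that sum EPCAM (-1.45) and CDX2 (-0.67) fell in NaB/Ctl while CDH1 (0.99), KRT8 (0.63) and KRT19 (0.97) rose. Of 9 leukocyte, fibroblast and endothelial markers, 8 had a probe and 3 were tested. The 8 with a probe summed to 0.374 to 0.949 in Ctl, 0.769 to 2.17 in NaB, 0.400 to 0.962 in Doxy and 0.907 to 2.83 in DoxyNaB. VWF and COL1A1 rose with butyrate, by 2.77 and 1.09 on the log2 scale in NaB/Ctl, and their part in the results below was not tested.

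Butyrate lowered most ribosome biogenesis genes, with or without doxycycline. At an adjusted p under 0.01 (limma, Benjamini-Hochberg adjustment over all tested probes), 39 of 46 genes fell in NaB/Ctl and 0 rose, where 29% of all tested genes fell and 40.6% rose. In DoxyNaB/Doxy 39 of 46 again fell and 0 rose, where 30.3% of all genes fell and 38.1% rose. With a fold over 2 required in addition, as the study does, 15 genes fell and 0 rose in NaB/Ctl (11.5% and 21% of all genes), and 20 fell and 0 rose in DoxyNaB/Doxy (12.5% and 18.7% of all genes). The median change of the 46 genes was -0.82 in NaB/Ctl and -0.85 in DoxyNaB/Doxy, beside medians of 0.17 and 0.11 over all genes. No array scaling turned these medians, but under quantile normalization DDX10 and EBNA1BP2 passed as higher in NaB/Ctl and EBNA1BP2 in DoxyNaB/Doxy, with 36 and 37 genes lower.

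Most of the called genes had separated arrays, while some, such as NPM1, were called with overlapping ones. For 33 of the 46 genes every NaB array lay below every Ctl array, which held for 20% of all genes, and for 35 every DoxyNaB array lay below every Doxy array, which held for 20.9%. In 38 genes the fall passed the test in both comparisons. The share of all tested genes that did so was not counted, nor was that for the overlap over 2-fold below. Over all tested genes the 2 responses correlated at r = 0.97, so such overlap need not be particular to these genes. POLR1D passed only in NaB/Ctl and RRP12 only in DoxyNaB/Doxy, but neither passed the test of the difference between the comparisons (adjusted p = 0.94 and 0.77, limma). BOP1, DDX10, EBNA1BP2, IMP3, POLR1E and PWP2 passed in neither. All 15 genes that fell over 2-fold in NaB/Ctl were among the 20 in DoxyNaB/Doxy, and the other 5 were NCL, NOP56, POLR1B, WDR43 and DDX18, with changes of -0.97, -0.85, -0.95, -0.83 and -0.81 in NaB/Ctl.

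**Figure D1:**
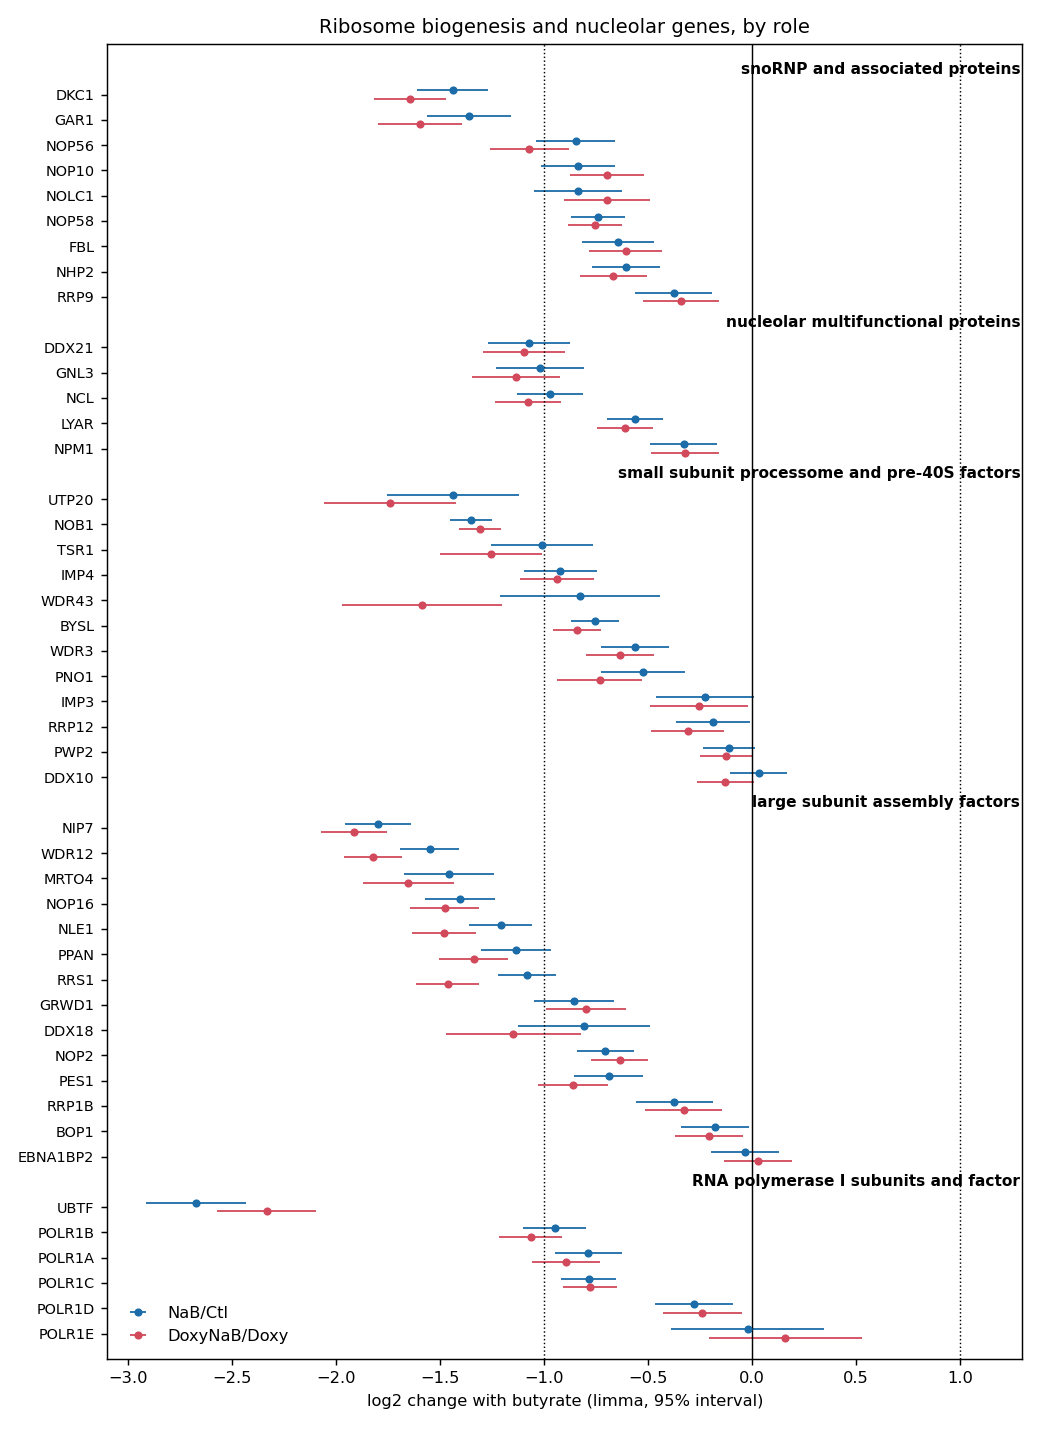
Log2 change with butyrate (horizontal axis, limma estimate with its 95% interval) for each of the 46 genes, grouped by role, without doxycycline (NaB/Ctl, blue) and with it (DoxyNaB/Doxy, red); dotted lines mark a fold of 2. Nearly all points lie left of 0, UBTF lies farthest at -2.67 and -2.33, and DDX10, EBNA1BP2, PWP2 and POLR1E lie at or near 0.

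By the processed signal, the machinery of rRNA transcription held the deepest fall. UBTF encodes the upstream binding factor that keeps rRNA genes open for RNA polymerase I. Its level had a lowest, median and highest array of -0.47, -0.30 and 0.29 in Ctl, -3.37, -2.73 and -2.62 in NaB, -0.40, -0.27 and 0.47 in Doxy, and -3.01, -2.49 and -1.99 in DoxyNaB. All 12 butyrate arrays lay below all 12 others, with a gap of over 1 log2 unit. The fall was 6.38-fold in NaB/Ctl (log2 -2.67 ± 0.22, SD over n = 6 experiments, adjusted p = 4.5e-13, limma) and 5.04-fold in DoxyNaB/Doxy (log2 -2.33 ± 0.24, adjusted p = 2.6e-12). The size depended on the array scaling: it ran from -2.02 with normexp background correction to -3.58 with quantile normalization in NaB/Ctl. In DoxyNaB/Doxy it was -1.51 with normexp and -3.03 with quantile normalization. With normexp WDR12 (-1.86), NIP7 (-1.74) and DKC1 (-1.66) fell further than UBTF in DoxyNaB/Doxy. The probe of UBTF, the only one, lies at chr17:39638234-39638293 on NCBI36, minus strand.

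POLR1A and POLR1B, the catalytic subunits of RNA polymerase I, fell less. POLR1B had levels of 1.23, 1.46 and 1.63 in Ctl (lowest, median, highest), 0.33, 0.53 and 0.67 in NaB, 1.20, 1.47 and 1.55 in Doxy, and 0.13, 0.39 and 0.56 in DoxyNaB. Its butyrate arrays did not overlap the others, and it changed by -0.95 ± 0.11 (adjusted p = 1.2e-09) and -1.06 ± 0.17 (adjusted p = 2.5e-10, SD, n = 6, limma). Its second probe fell as well, by 0.89 and 1.18. POLR1A changed by -0.79 ± 0.17 and -0.89 ± 0.20. POLR1C, a subunit shared with RNA polymerase III, changed by -0.79 and -0.78 (second probe -0.39 and -0.63), and the other shared subunit, POLR1D, by -0.28 (adjusted p = 0.0090) and -0.24 (adjusted p = 0.022). A second probe of POLR1D was at -0.06 and -0.03 and did not pass. POLR1E, which helps the polymerase dock on its promoter, was at -0.02 (95% interval -0.39 to 0.35) and 0.16 (-0.21 to 0.53). Its NaB arrays ran from -0.64 in experiment 1 to 1.09, the next lowest being at 0.51, and the sign of its NaB/Ctl change turned under 6 of the alternative settings, quantile normalization (0.013) among them.

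The snoRNP genes fell together. All 9 passed in both comparisons, with a median of -0.84 in NaB/Ctl and -0.70 in DoxyNaB/Doxy and a range of -1.44 to -0.38 in the former. DKC1, the pseudouridine synthase of box H/ACA snoRNPs, had levels of 2.88, 3.00 and 3.07 in Ctl, 1.27, 1.54 and 1.89 in NaB, 2.87, 3.05 and 3.18 in Doxy, and 0.94, 1.48 and 1.67 in DoxyNaB. Its lowest array without butyrate was almost 1 log2 unit above its highest array with butyrate. It fell 2.71-fold (log2 -1.44 ± 0.17, adjusted p = 2.1e-11) and 3.12-fold (log2 -1.64 ± 0.26, adjusted p = 3.3e-12, SD, n = 6, limma). Its H/ACA partners were unequal: GAR1 changed by -1.36 and -1.60, NOP10 by -0.84 and -0.70, and NHP2 by -0.61 and -0.67.

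FBL, the methyltransferase of box C/D snoRNPs, had levels of 5.38, 5.47 and 5.88 in Ctl, 4.67, 4.89 and 5.15 in NaB, 5.28, 5.38 and 5.81 in Doxy, and 4.39, 4.91 and 5.04 in DoxyNaB. Its groups with and without butyrate did not overlap either, and it changed by -0.64 ± 0.15 and -0.61 ± 0.27 (adjusted p = 1.3e-06 and 2.9e-06, limma). NOP56, a scaffold of the same particles, changed by -0.85 ± 0.22 and -1.07 ± 0.21, and its second probe by -0.69 and -1.02. Its partner NOP58 changed by -0.74 and -0.76. NOLC1, a chaperone of both particle classes, changed by -0.84 and -0.70, with the NaB array of experiment 6 dropped for an outlier spot. RRP9, a protein of the snoRNP that takes part in small subunit processing, changed least of the 9, by -0.38 and -0.34.

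The 5 genes of multifunctional nucleolar proteins all fell in both comparisons. Nucleolin, NCL, is among the most abundant nucleolar proteins and acts from rRNA transcription to assembly. It had levels of 6.04, 6.14 and 6.34 in Ctl, 4.93, 5.18 and 5.40 in NaB, 5.95, 6.05 and 6.18 in Doxy, and 4.52, 5.03 and 5.27 in DoxyNaB, with no overlap between arrays with and without butyrate. The change was -0.97 ± 0.11 and -1.08 ± 0.24 (adjusted p = 1.7e-09 and 4.0e-10, limma, n = 6). Nucleophosmin, NPM1, a histone and ribosome chaperone, was different: its levels of 6.18, 6.36 and 6.92 in Ctl overlapped those of 5.83, 6.05 and 6.57 in NaB, and Doxy (6.26, 6.37 and 6.87) overlapped DoxyNaB (5.79, 6.07 and 6.53). Within experiments it was lower with butyrate in 6 of 6 pairs of either comparison, by 0.33 ± 0.21 and 0.32 ± 0.17 (adjusted p = 8.7e-04 and 1.0e-03). Without the replicate block these 2 calls were lost, and with normexp that in NaB/Ctl was (-0.25, adjusted p = 0.14). Of the other probes, one passed in both (-0.38 and -0.41) and one in neither (-0.34, adjusted p = 0.063, and -0.25, adjusted p = 0.24). NPM1 has processed copies elsewhere in the genome, so signal from these cannot be told apart.
The helicase DDX21 changed by -1.07 and -1.10, the GTPase GNL3 (nucleostemin) by -1.02 and -1.14, and LYAR, a growth-linked nucleolar factor, by -0.56 and -0.61. GNL3 was fitted without the Ctl and DoxyNaB arrays of experiment 1 and the Doxy array of experiment 6, whose spots were outliers.

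Of the 12 small subunit factors, 8 fell in NaB/Ctl and 9 in DoxyNaB/Doxy. UTP20, a giant scaffold of the small subunit processome, had levels of 0.44, 0.57 and 0.80 in Ctl, -1.39, -0.86 and -0.39 in NaB, 0.51, 0.56 and 0.70 in Doxy, and -1.56, -1.27 and -0.48 in DoxyNaB. Its butyrate arrays were spread over 1 log2 unit but all lay below the others, and it changed by -1.44 ± 0.50 and -1.74 ± 0.38 (adjusted p = 9.3e-08 and 7.2e-09, limma, n = 6). NOB1, the nuclease that makes the last cut of the small subunit rRNA, fell most evenly, by 1.35 and 1.31, and had the lowest adjusted p of the 46 genes in NaB/Ctl, 4.8e-14. Of the factors of late small subunit precursors, TSR1 changed by -1.01 and -1.25, BYSL by -0.76 and -0.84, and PNO1, the partner of NOB1, by -0.53 and -0.73. Of the processome proteins, IMP4 changed by -0.92 and -0.94 and WDR3 by -0.56 and -0.64. A second probe of WDR3 was at 0.42 (adjusted p = 0.39) and -0.78 (adjusted p = 0.12) and passed in neither. RRP12, an export factor, was at -0.19 and -0.31, of which only the latter passed. IMP3, a partner of IMP4, was at -0.23 and -0.25, and PWP2, another processome protein, at -0.11 and -0.12 (0.016 in DoxyNaB/Doxy under quantile normalization). DDX10, a helicase, was at 0.03 (95% interval -0.10 to 0.17) and -0.13 (-0.27 to 0.01), but at -0.72 in NaB/Ctl when arrays were scaled to the median after a floor of 5.

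WDR43, a processome protein that binds early on the precursor, had the widest range of untreated arrays among the genes described with levels here. Its Ctl arrays ran from -0.59 to 1.87, with a median of 0.67, and its NaB, Doxy and DoxyNaB arrays from -1.31 to 0.52, 0.49 to 1.87 and -0.89 to 0.31. The Ctl range overlapped that of every other treatment, while Doxy and DoxyNaB did not overlap. It changed by -0.83 ± 0.61 in NaB/Ctl (lower in 5 of 6 experiments, adjusted p = 5.1e-04) and by -1.58 ± 0.20 in DoxyNaB/Doxy (6 of 6, adjusted p = 3.4e-07, limma).

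The large subunit assembly factors held the most genes with a fold over 2: 7 of 14 in NaB/Ctl and 8 of 14 in DoxyNaB/Doxy, while 12 of 14 passed without the fold in each. Their median change was -0.97 and -1.24. NIP7, needed for the maturation of the large subunit precursor, had levels of 1.67, 1.80 and 1.97 in Ctl, -0.35, 0.02 and 0.30 in NaB, 1.57, 1.81 and 1.89 in Doxy, and -0.40, -0.09 and -0.02 in DoxyNaB. By the processed signal it came next to UBTF in both comparisons. It changed by -1.80 ± 0.14 (adjusted p = 4.2e-13) and -1.91 ± 0.21 (adjusted p = 1.8e-13, SD, n = 6, limma). More than 1 log2 unit lay between its arrays with and without butyrate.

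WDR12, PES1 and BOP1 form the PeBoW complex and changed by unlike amounts. WDR12 had levels of 2.77, 2.83 and 2.98 in Ctl, 1.11, 1.26 and 1.60 in NaB, 2.76, 2.86 and 2.92 in Doxy, and 0.74, 1.09 and 1.15 in DoxyNaB, and fell by 1.55 ± 0.13 and 1.82 ± 0.18 (adjusted p = 5.3e-13 and 6.4e-14). PES1 changed by -0.69 and -0.86. BOP1, the scaffold of the complex, did not pass, at -0.18 (95% interval -0.34 to -0.01) and -0.21 (-0.37 to -0.04), and its arrays overlapped between Ctl (4.43 to 4.91) and NaB (4.23 to 4.60). The difference between these 3 genes was not tested.

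Among the other large subunit factors, MRTO4, a placeholder for a stalk protein, changed by -1.46 and -1.65, the nucleolar factor NOP16 by -1.40 and -1.48, NLE1, which helps release late factors, by -1.21 and -1.48 (second probe -1.42 and -1.51), PPAN, an early rRNA-binding factor, by -1.14 and -1.34, and RRS1, which helps bring in the smallest rRNA, by -1.08 and -1.46. The chaperone GRWD1 (-0.85 and -0.80), the helicase DDX18 (-0.81 and -1.15), the rRNA methyltransferase NOP2 (-0.70 and -0.64) and RRP1B (-0.37 and -0.33) fell less. DDX18 was fitted without the NaB array of experiment 6 and the Doxy arrays of experiments 5 and 6, and RRS1 without the Doxy array of experiment 1. EBNA1BP2, an early assembly factor, did not differ beyond its spread: its Ctl arrays ran from 4.11 to 4.58 and its NaB arrays from 4.04 to 4.58, and the change was -0.03 (95% interval -0.20 to 0.13) and 0.03 (-0.13 to 0.19), with a sign that turned under other scalings (0.16 with quantile normalization and 0.084 with normexp in NaB/Ctl).

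**Figure D2:**
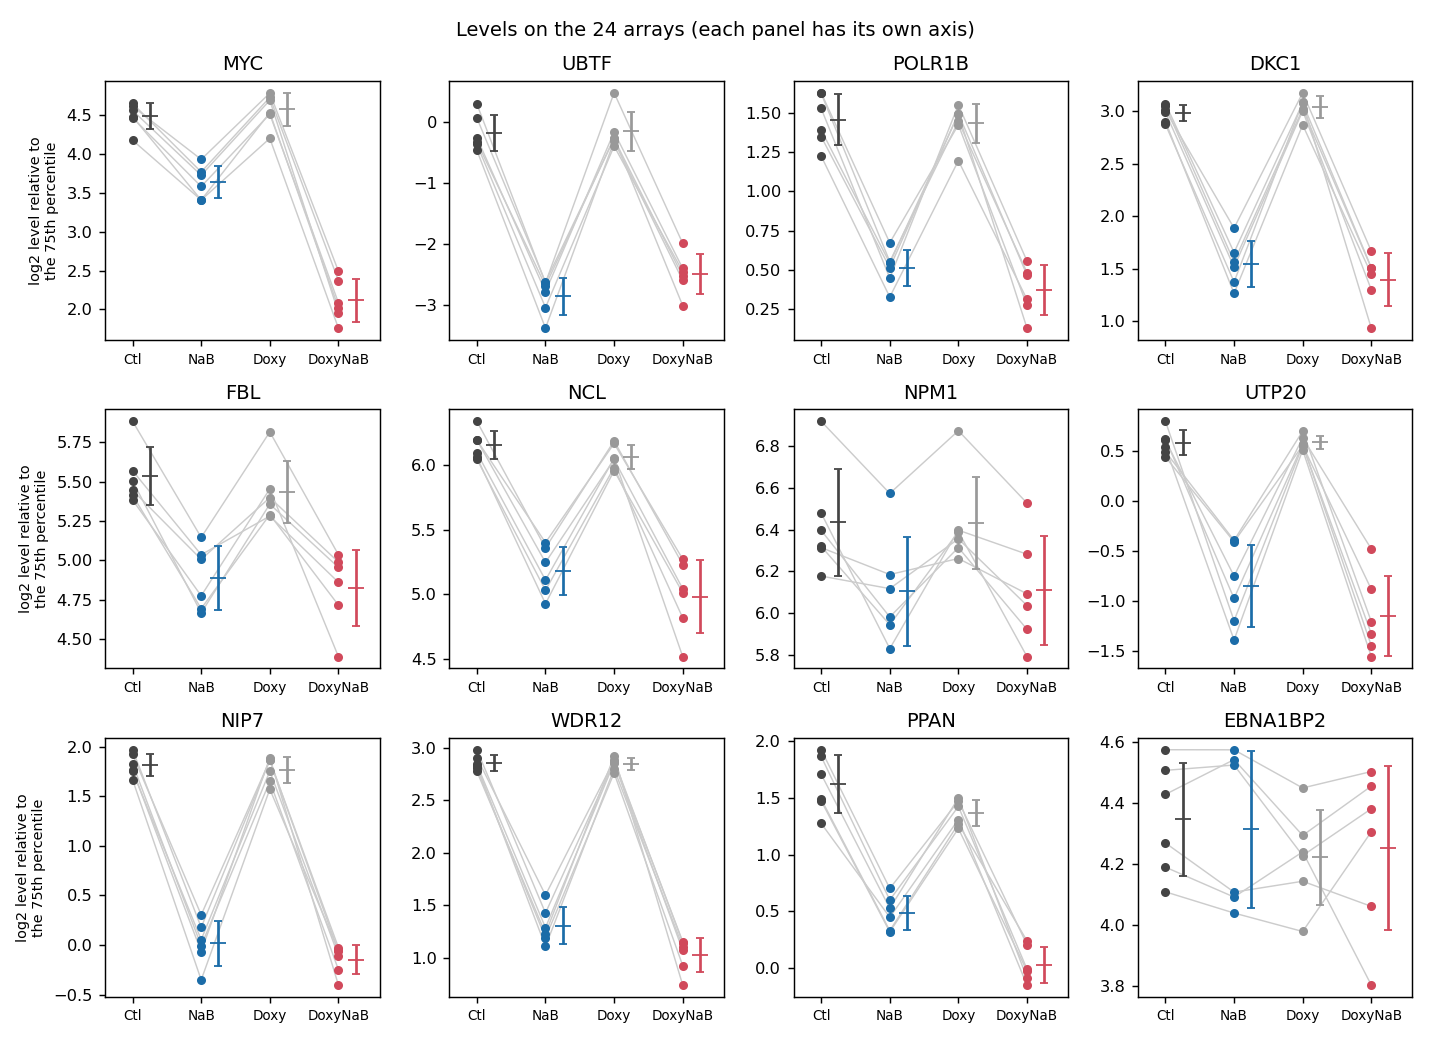
Level on each array (points; log2 relative to the 75th percentile of the array) of MYC and 11 of the genes in the 4 treatments, with grey lines joining arrays of 1 experiment and the mean ± SD (n = 6) beside each group. MYC steps down from NaB to DoxyNaB, while UBTF, POLR1B, DKC1, FBL, NCL, NPM1, UTP20, NIP7 and WDR12 have overlapping levels in NaB and DoxyNaB, PPAN is lower in DoxyNaB without overlap, and EBNA1BP2 overlaps in all 4.

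The changes with and without doxycycline were close gene by gene. Over the 46 genes the NaB/Ctl and DoxyNaB/Doxy changes, which come from different arrays of the same experiments, correlated at r = 0.95 (Spearman rho = 0.96), about as over all tested genes (r = 0.97). These are correlations across genes, which are not independent replicates. The difference between the responses, NaB/Ctl minus DoxyNaB/Doxy, passed an adjusted p of 0.01 in 0 of 46 genes in either direction (limma), where 1.11% of all genes passed as higher and 0.244% as lower. At an unadjusted p under 0.05 there were 5, and the share of all tested genes at that threshold was not counted. The largest positive differences were those of WDR43 (0.76, adjusted p = 0.18), RRS1 (0.38, adjusted p = 0.052) and DDX18 (0.34, adjusted p = 0.59). The most negative were those of UBTF (-0.34, adjusted p = 0.41), POLR1E (-0.18, adjusted p = 0.85) and NOP10 (-0.14, adjusted p = 0.71). Quantile normalization made RRS1 pass (0.45, adjusted p = 0.0051). The 95% intervals of the 46 differences had a median half-width of 0.24, and differences above that size, such as those of WDR43 and DDX18, did not pass. On simulated data this test recovered 71 of 100 differing probes, whose differences were set larger than that of any of the 46 genes. Recovery of differences of the size seen here was not simulated.

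MYC itself did differ. Its level had a lowest, median and highest array of 4.17, 4.52 and 4.64 in Ctl, 3.40, 3.65 and 3.93 in NaB, 4.20, 4.61 and 4.78 in Doxy, and 1.76, 2.05 and 2.49 in DoxyNaB. Ctl and Doxy overlapped, NaB lay below both, and DoxyNaB lay below all other arrays by almost 1 log2 unit. The fall was 1.81-fold in NaB/Ctl (log2 -0.85 ± 0.13, adjusted p = 7.9e-10) and 5.48-fold in DoxyNaB/Doxy (log2 -2.45 ± 0.15, adjusted p = 1.2e-15), and the difference between both responses was 1.60 (adjusted p = 2.1e-08, limma, n = 6 experiments). That last call was lost when arrays were scaled to their median after a floor of 5 (1.41, adjusted p = 0.12), in experiments 5 and 6 alone (1.54, adjusted p = 0.078) and by the methods' paired test after adjustment (adjusted p = 0.024).

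DoxyNaB against NaB sets a lower MYC RNA level beside the same butyrate treatment. It also adds doxycycline and abundant DN-Tcf4, so the part of MYC cannot be told apart from theirs. MYC protein was not measured. MYC fell 2.86-fold (log2 -1.52, 95% interval -1.65 to -1.39, 6 of 6 experiments, adjusted p = 8.0e-11). Of the 46 genes, 2 fell at an adjusted p under 0.01 and 0 rose (limma), or 4.35% lower, where 2.03% of all genes fell and 0.699% rose. The median was -0.13 (all genes -0.03), and 38 of 46 changes were negative, as were 56.6% over all genes. The median was -0.02 with 26 of 46 negative under the median scaling, and -0.22 (all genes 0.07) with 41 negative under normexp. The interval of 32 genes included 0, that of 0 genes reached a 2-fold fall, and the lowest bound of any was -0.62. In treatment means, DoxyNaB was nevertheless the lowest of the 4 for 37 genes and NaB for 8. This comparison shares its arrays with both butyrate comparisons, so its values are not independent of theirs.

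PPAN and RRS1 were the 2 genes that fell. PPAN, a large subunit factor, had levels of 1.28, 1.60 and 1.92 in Ctl, 0.32, 0.49 and 0.70 in NaB, 1.23, 1.37 and 1.50 in Doxy, and -0.15, -0.02 and 0.24 in DoxyNaB, so that NaB and DoxyNaB did not overlap. It was lower in 6 of 6 experiments, by 0.46 ± 0.21 (adjusted p = 1.4e-03, limma). RRS1 was lower by 0.32 ± 0.17, also in 6 of 6 (adjusted p = 7.0e-03), with NaB arrays from 1.09 to 1.65 and DoxyNaB arrays from 0.80 to 1.22. Neither call was firm: leaving out experiment 4, 5 or 6 took PPAN past 0.01 (adjusted p = 0.011, 0.015 and 0.013), leaving out any 1 experiment took RRS1 past it, and with no replicate block the count was 0. Next came UTP20 at -0.30 (adjusted p = 0.37). UBTF (0.36, adjusted p = 0.088), POLR1E (0.23, adjusted p = 0.61) and NOLC1 (0.10, adjusted p = 0.72) were the highest, and did not pass.

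**Figure D3:**
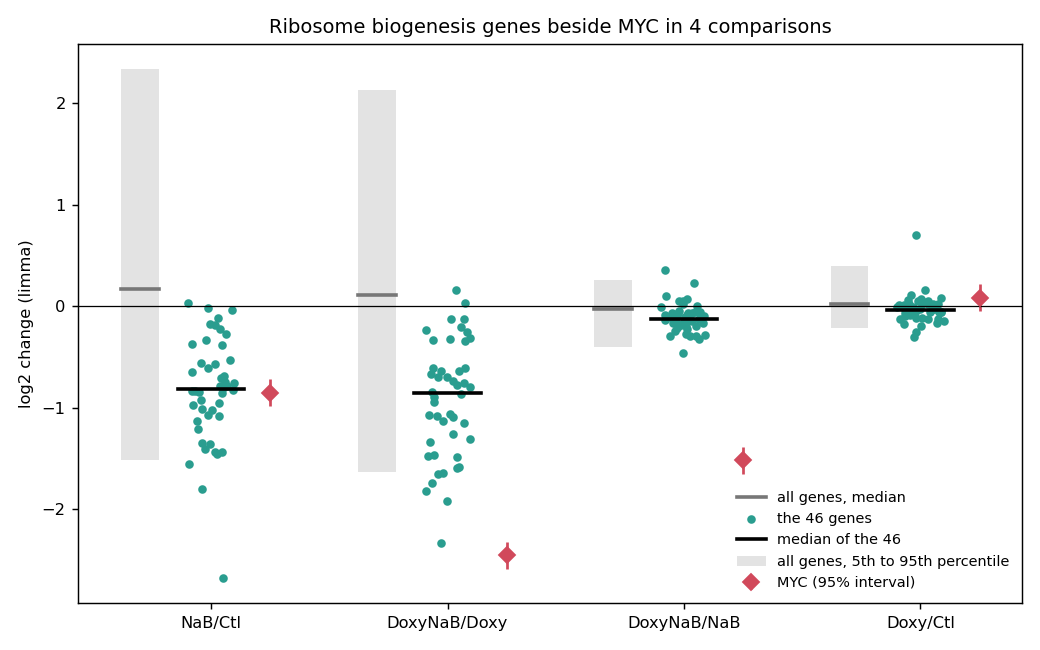
Log2 changes (vertical axis, limma estimates) in 4 comparisons: the 46 genes (green points, black bar at their median), MYC (red diamond with its 95% interval) and all tested genes (grey bar from the 5th to the 95th percentile, dark line at the median). MYC and the median of the 46 are close in NaB/Ctl (-0.85 and -0.82) and apart in DoxyNaB/Doxy (-2.45 and -0.85) and DoxyNaB/NaB (-1.52 and -0.13).

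Each experiment was also compared within itself. The median of the 46 genes ran from -0.86 to -0.75 over the 6 experiments in NaB/Ctl, and MYC from -1.07 to -0.68. In DoxyNaB/Doxy the median ran from -1.11 to -0.59 and MYC from -2.72 to -2.29, with no overlap. In DoxyNaB/NaB the median ran from -0.33 to 0.12 and MYC from -1.76 to -1.38. The lowest and the highest of these medians came from experiments 2 and 3, the ones with the butyrate arrays of highest negative controls. Without those 2 arrays the DoxyNaB/NaB median was -0.09 and PPAN alone passed, and 14 and 17 genes fell over 2-fold in NaB/Ctl and DoxyNaB/Doxy. Without experiment 1 these counts were 14 and 20.

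**Figure D4:**
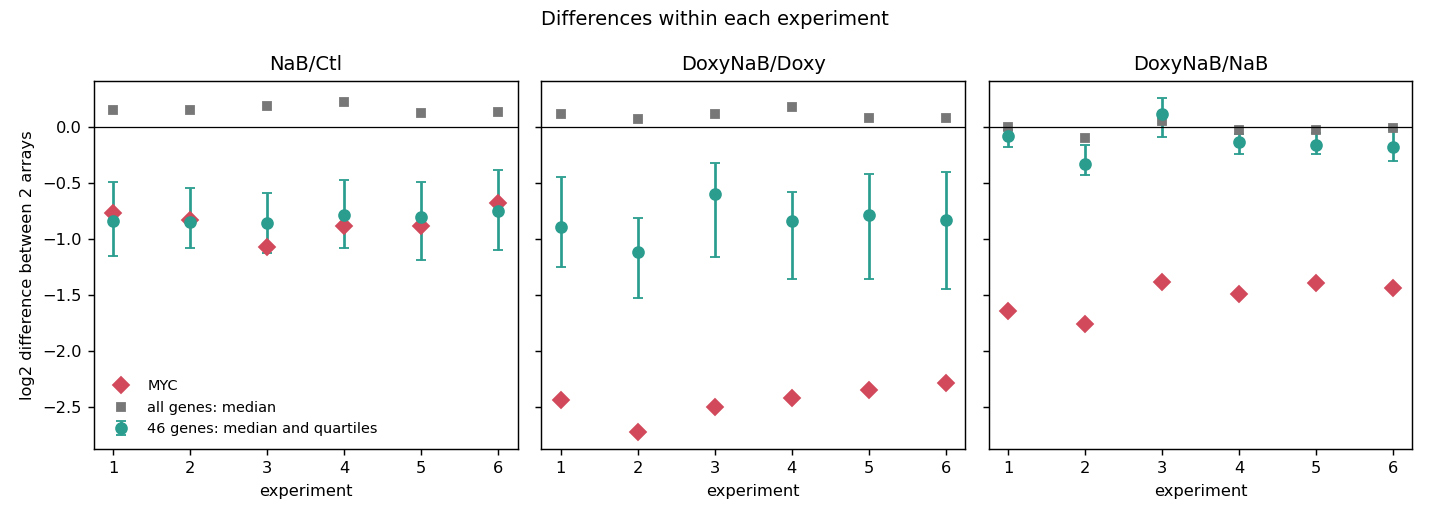
Log2 difference between 2 arrays of the same experiment (vertical axis) in experiments 1 to 6, for the 46 genes (green, median with quartiles), MYC (red diamonds) and all tested genes (grey squares, median). In NaB/Ctl the medians of the 46 genes (-0.86 to -0.75) lie in the range of MYC (-1.07 to -0.68), while in DoxyNaB/Doxy and DoxyNaB/NaB MYC lies below every median.

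Doxycycline alone had no gene past the test. In Doxy/Ctl 0 of 46 genes passed in either direction (limma), where 0.462% of all genes rose and 0.0924% fell. At an unadjusted p under 0.05 there were also 5 genes, again without a count over all tested genes. The median was -0.03, and MYC was at 0.08 (95% interval -0.05 to 0.22, adjusted p = 0.66). WDR43 had the highest change, 0.70 (95% interval 0.31 to 1.08, higher in 5 of 6 experiments, adjusted p = 0.074), followed by TSR1 (0.16) and DDX18 (0.12). The lowest were GRWD1 (-0.30, adjusted p = 0.13), PPAN (-0.26, adjusted p = 0.14) and POLR1C (-0.19, adjusted p = 0.17). The methods' paired test at an unadjusted p under 0.01, with no fold, called 3 genes lower.

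The relation to MYC was also followed array by array. Pooling the treatments would only restate that the groups differ, so Pearson r was taken over the 6 arrays of each treatment, for 177 pairs of gene and treatment without a dropped array, each with a two-sided exact permutation p. Of these 0 passed an adjusted p of 0.05 (lowest 0.49, and 0.65 with Spearman's rho), and 17 had an unadjusted p under 0.05. With 6 arrays the smallest p is 0.00139, and at least 5 relations would have to reach it to pass. The median r was -0.40 in Ctl, 0.22 in NaB, -0.45 in Doxy and 0.16 in DoxyNaB, and 84 of the 177 were positive. In Ctl and Doxy the array of experiment 1 had the lowest MYC level, 4.17 and 4.20. Pearson r was also taken without the 2 arrays farthest from the median MYC level, experiment 1 being among them in Ctl and Doxy. In Ctl, NOP16 then turned from -0.76 to 0.88, while NPM1 stayed negative, at -0.96 and -0.92. How far the medians rest on experiment 1 was not tested. The signs of the medians depended on the scaling: the Ctl median was 0.11 with quantile normalization and 0.68 with normexp, and the Doxy median 0.19 with normexp. Relative to the median of each experiment, the medians were 0.04, 0.48, -0.18 and 0.50 in the same order. With a floor of 5 and scaling to the array median, 91 relations passed, all positive, and the cause of that difference was not tested.

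The promoter groups had overlapping changes. The 18 genes with CACGTG in a window had a median of -0.79 in NaB/Ctl (range -1.46 to -0.03) and the 20 genes without it -0.90 (-2.67 to 0.03). In DoxyNaB/NaB, where MYC fell 2.86-fold, the medians were -0.13 and -0.14. UTP20 and DDX21, whose E-box stretches are shown above, were at -0.30 and -0.01 there. UBTF, NIP7 and WDR12, the genes of deepest fall with butyrate by the processed signal, have no CACGTG in the windows given for them.

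Beyond the 46, other genes of the pathway fell with butyrate too. Of 114 tested genes of other small and large subunit factors, RNA polymerase I and III and the RNA exosome, 74 fell and 10 rose in NaB/Ctl at an adjusted p under 0.01, and 80 fell and 8 rose in DoxyNaB/Doxy, beside 29% and 40.6%, and 30.3% and 38.1%, of all tested genes. Their medians were -0.54 and -0.65. EXOSC8, a core subunit of the RNA exosome, changed by -1.97 and -2.49, the methyltransferase EMG1 by -1.87 and -1.87, and POLR1H, a small subunit of RNA polymerase I, by -1.85 and -1.91. ZNF622, a late large subunit factor, rose by 0.84 and 0.97 and NOP9 by 0.47 and 0.58. The RNA polymerase III subunits split, with 6 of 10 lower and 2 of 10 higher in both comparisons. The exosome had 10 and 9 of 12 tested genes lower, and DIS3 was not tested. In DoxyNaB/NaB 5 of the 114 fell, namely RCL1 (-0.51), URB1 (-0.44), POLR1G (-0.38), TTF1 (-0.39) and POLR3C (-1.05), and 0 rose, where 2.03% of all genes fell.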

How the data were processed

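By the study's methods, cRNA was made from the RNA of the 24 samples and hybridised to whole genome arrays, here one-colour. The deposited files hold scanner output, and per the file headers their intensity columns are the mean, background and processed signals that the authors obtained with Feature Extraction 9.5.3.1. Other deposited columns hold flags, names and probe positions per the file headers, on build NCBI36, whose exon annotation was not used here.

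From these, control spots and outlier spots were left out, the processed signal was expressed as log2 relative to the 75th percentile of each array, and spots of 1 probe were averaged, which gave 34127 probes. Probes entered the test if 1 treatment or more had all 6 of its arrays well above background. For a gene with several probes, the probe of highest mean signal was used. The 46 genes, the other lists and the tests were chosen with earlier results of these data known. The rule for named genes gave MYC, the best known members of each role, the 3 members of largest and of smallest change in each comparison, and of the other pathway genes the 2 of largest and of smallest change among those called in each butyrate comparison.

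A linear model with the 4 treatments and the experiment number as a block was fitted to all tested probes with limma 3.58.1 (R 4.3.3), using moderated tests with Benjamini-Hochberg adjustment. The experiment numbers come from the labels. Deviations of arrays of 1 experiment correlated at 0.219 to 0.853 in 35 of 36 pairs and at -0.224 for NaB and DoxyNaB of experiment 3. Python 3.11.15, numpy 2.4.6, pandas 2.3.3 and scipy 1.17.1 were used for the rest. On simulated data of 18983 probes, 275 of 300 changed probes were recovered for NaB/Ctl and 184 of 200 for DoxyNaB/Doxy. For DoxyNaB/NaB 92 of 100 were recovered. For the difference between the responses it was 71 of 100, with 2 unchanged probes called. These counts hold only for the size of change that was set. In DoxyNaB/NaB the ribosome biogenesis genes followed here changed by -0.46 to 0.36 (median -0.13), and recovery at such sizes was not simulated. The 92 of 100 therefore does not show how many of these genes the test could find.

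Alternatives were normexp background correction (offset 50), quantile normalization, a floor of 5 followed by scaling to the array median, other filters, fits without the block, with slide as block or with only the groups compared, subsets by scan, each experiment left out, the mean over probes, and the methods' paired test. Leaving out the 2 butyrate arrays of highest negative controls was chosen after seeing the data. Arrays give no counts, so their number limits the precision. A marker of the list fixed at the start is not reported here and was left out of its sums.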

Additional observations from a re-analysis of the deposited data

Results flagged for a closer look

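Within a treatment, the highest or lowest array stood far from the others in 24 of 188 groups of a gene, MYC included, and a treatment. Groups held up to 6 arrays, and that of GNL3 in DoxyNaB held 5. Chance gives about 5% for a group, but the groups share their arrays and are not independent. Of the 24, 21 were arrays of experiment 1. The value given here is the gap to the nearest array divided by the range of the group. The array of experiment 1 was the highest for FBL in Ctl (0.628) and Doxy (0.677), NOP58 in Ctl (0.815) and Doxy (0.69), NHP2 in Doxy (0.661), NPM1 in Doxy (0.778), PWP2 in Doxy (0.633) and DoxyNaB (0.704), NOB1 in Ctl (0.819) and NaB (0.666) and Doxy (0.694), BOP1 in Ctl (0.851), NOP16 in Ctl (0.716) and DoxyNaB (0.742), NLE1 in Doxy (0.655), POLR1C in Doxy (0.692), POLR1D in Doxy (0.763) and UBTF in Doxy (0.736). The array of experiment 2 was the lowest for NOLC1 in DoxyNaB (0.913), GNL3 in DoxyNaB (0.896) and PNO1 in DoxyNaB (0.723). The array of experiment 1 was the lowest for WDR3 in Doxy (0.769), POLR1B in Doxy (0.644) and POLR1E in NaB (0.664).

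The response of MYC to butyrate differed without and with doxycycline by 1.60 on the log2 scale, being -0.85 in NaB/Ctl and -2.45 in DoxyNaB/Doxy, by a test of the difference itself (adjusted p = 2.1e-08, limma). It did not pass when arrays were scaled to their median after a floor of 5 (1.41, adjusted p = 0.12). Of the 46 genes, 0 passed the same test.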

How the results depend on the processing

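The falls with butyrate kept their direction, as counts and as medians, under every setting run. In DoxyNaB/NaB the median stayed negative and 0 genes were higher, but calls were lost. Another scaling moved the median of all probes from 0.17 in NaB/Ctl and 0.10 in DoxyNaB/Doxy to -0.09 and -0.11 (quantile normalization), -0.58 and -0.46 (a floor of 5, then scaling to the array median) or 0.07 and 0.21 (normexp). Relative to it the 46 genes were at -0.99 and -0.95, and at -0.54 and -0.63, -1.0 and -0.95, and -0.70 and -1.11 under these 3. All 46 genes were flagged as well above background on all 24 arrays, and the number of arrays limits the precision. The flag does not settle whether dim signal matters for UBTF. Its level was as low as -3.37 in NaB, and its NaB/Ctl change moved from -2.67 to -2.02 with normexp.

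The median in NaB/Ctl was -0.63 with quantile normalization, -0.63 with normexp, -1.58 with the median scaling and -0.77 in experiments 5 and 6 alone. With the median scaling it was -1.41 in DoxyNaB/Doxy, -0.11 in Doxy/Ctl and -0.12 for the difference between the responses, and with normexp 0.030 in Doxy/Ctl. Genes lower over 2-fold numbered 39 in NaB/Ctl and 35 in DoxyNaB/Doxy with the median scaling, 39 and 39 without the fold, and 14 to 16 and 17 to 21 when 1 experiment was left out. The 2 genes lower in DoxyNaB/NaB became 4 with quantile normalization, 0 with the median scaling, 0 with normexp, 1 with no filter, 0 with only the groups compared, 0 in experiments 2 to 4 and 0 in experiments 5 and 6. They became 0 to 1 when 1 experiment was left out, 1 when the 2 arrays with the highest negative controls were dropped, 0 with a fold over 2, 6 at an adjusted p under 0.05, 0 by the methods' paired test after adjustment and 4 before it. That test before adjustment also gave 3 lower in Doxy/Ctl and 1 higher for the difference between the responses, where quantile normalization gave 1. Relations with MYC past the threshold numbered 91 with the median scaling. The causes were not tested.

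The labels pair the arrays by experiment number. With no replicate block 0 genes were lower in DoxyNaB/NaB, 35 and 35 genes passed in the butyrate comparisons without the fold, and DDX18 in Doxy/Ctl was at -0.0025.

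Signs turned in genes near 0. EBNA1BP2 in NaB/Ctl was at 0.16 with quantile normalization, 0.084 with normexp and 0.066 in experiments 5 and 6. In DoxyNaB/Doxy it was at -0.53 with the median scaling, -0.090 with normexp, -0.064 in experiments 2 to 4, and -0.030 to 0.12 with 1 experiment left out, the lowest without experiment 3. POLR1E in NaB/Ctl was at 0.013 with quantile normalization, 0.076 with slide as block, 0.014 in experiments 2 to 4, 0.37 in experiments 5 and 6, and -0.11 to 0.16 with 1 experiment left out, turning without experiment 1 or 2. In DoxyNaB/Doxy it was at -0.40 with the median scaling. In experiments 5 and 6 it was at -0.063 in DoxyNaB/Doxy, -0.21 in DoxyNaB/NaB and 0.43 for the difference. DDX10 in NaB/Ctl was at -0.72 with the median scaling and -0.025 in experiments 2 to 4, and PWP2 in DoxyNaB/Doxy at 0.016 with quantile normalization. MYC in Doxy/Ctl was at -0.0022 with the median scaling, DDX18 there at -0.022 to 0.19 with 1 experiment left out, the lowest without experiment 2, and POLR1C there at 0.042 as the mean over probes. With normexp, NOLC1 in DoxyNaB/NaB was at -0.14 and NOP10 for the difference at 0.13.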
